A study of Mus musculus with 19 samples.

Results

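A set of 10 genes of the Nrf2 and Keap1 antioxidant system was followed by animal in mouse liver after dibenz[a,h]anthracene (DB[a,h]A), a polycyclic aromatic hydrocarbon. The 10 genes are the transcription factor Nrf2 (gene Nfe2l2), its repressor Keap1, and 8 genes known as Nrf2 targets: Gclc, Gclm, Slc7a11, Txnrd1, Srxn1, Nqo1, Hmox1 and G6pdx. Every non-control probe whose RefSeq accession belongs to one of them was taken, which gave 11 of 55681 probes and 10 of 20018 genes with a symbol on the array. Hmox1 had 2 probes and the other genes 1 each. The rule matches probes by accession and uses no measured value, but the 10 genes were chosen with earlier results of these data known.

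The samples were livers of 19 male mice of the transgenic mouse strain 40.6, 10 weeks old, taken 3 days after exposure. The groups received DB[a,h]A at 0 (controls), 6.25, 12.5 or 25 mg/kg and held 5, 5, 4 and 5 animals, and the labels used here give no vehicle or route. All animals, controls included, carried the strain's transgene. Each animal had 1 Agilent 2-colour array, with its liver RNA in red (Cy5) and a purchased reference RNA derived from 11 mouse cell lines in green (Cy3). The dyes were never swapped. A level below is therefore a log2 ratio of liver over reference, a change is a difference between such ratios, and a gene-specific dye effect is part of every level.

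Nrf2 is a transcription factor that Keap1, an adaptor of the Cul3 ubiquitin ligase, holds at low level by marking it for degradation. Electrophiles and oxidants modify cysteines of Keap1, Nrf2 then escapes degradation, pairs with a small Maf protein and binds antioxidant response elements near its target genes. The targets make glutathione, reduce thioredoxin and quinones, break down haem and supply NADPH. Because this control acts largely on Nrf2 protein, an array of RNA reads the targets and the Nfe2l2 transcript but not the amount or location of the protein. In liver, polycyclic aromatic hydrocarbons are oxidised to epoxides and quinones by enzymes under the aryl hydrocarbon receptor (AhR), and quinones of this kind are known inducers of Nrf2 targets.

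The arrays lay on 3 slides, each of which held all 4 groups, and slide 1 was scanned 7 days after the others. Slide 1 held 5 arrays (2 of them controls), slide 2 held 8 with 2 of each group, and slide 3 held 6 with 1 control. Between 35.5 and 56.7% of the spots of an array had liver signal well above background. All 6 hepatocyte markers (Alb, Apoa1, Ttr, Tat, Cps1 and Fgb) were above background on every array of this tissue labelled as liver. No marker of hepatocytes or of macrophages, endothelial, stellate, biliary, erythroid or lymphoid cells passed the test at any dose. In pieces of whole liver, fewer cells of a type and less RNA per cell cannot be told apart. Tests compare single animals, and since the labels do not describe litters or cages, p-values measure the spread between the arrays of these 19 mice. In a fit without slide, that spread includes differences between slides.

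The sequences at stake are the antioxidant response elements. A search of RefSeq promoters (build GRCm38.p6, 250 bases before to 50 after the start of transcription, both strands) used the core TGACNNNGC and its variant TGAGNNNGC. Of the 10 genes 8 had an entry, and Gclc and Hmox1 had none. One or both forms stood in 6 of these 8 genes, and in 30.8% of 27025 genes of the same table. The following windows of 29 bases are shown because each holds such a match close to the start of a member gene; they are written on the gene's own strand with the match in capitals, so a match on the opposite strand appears as its reverse complement.
Nfe2l2, chr2:75704885-75704913, minus strand: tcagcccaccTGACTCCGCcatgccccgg
Gclm, chr3:122245413-122245441, plus strand: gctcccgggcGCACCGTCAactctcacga
Slc7a11, chr3:50443692-50443720, minus strand: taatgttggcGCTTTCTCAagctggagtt
Txnrd1, chr10:82859104-82859132, plus strand: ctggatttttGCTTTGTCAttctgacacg
Srxn1, chr2:152105469-152105497, plus strand: aaattcacccTGAGTCAGCggccgggcgc
G6pdx, chrX:74428919-74428947, minus strand: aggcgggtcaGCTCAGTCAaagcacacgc

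The match began 240 bases before the start site in Nfe2l2, 134 in Gclm, 97 in Slc7a11, 92 in Txnrd1, 45 in Srxn1 and 57 in G6pdx. The Srxn1 match overlaps TGACTCA read on the opposite strand, the core of AP-1 sites, and the Srxn1 window held 2 further matches. The Txnrd1 match lay in 1 of its 3 listed promoters. In the Keap1 and Nqo1 windows neither form was found, which says only that these letters are not in those 300 bases. The AhR core GCGTG was present in 5 of the 8 genes, against 35.2% of all genes. A match is a description of letters and not a shown binding site.

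No member gene passed the test at any dose. Nfe2l2 had the highest estimate in the comparison of 25 mg/kg with control, at 1.45-fold, and Gclc the lowest, but neither passed after adjustment over all probes, and the other tested genes differed from control by 0.26 log2 or less. The test covered 9 genes. Slc7a11, the cystine transporter, was not well above background in any of the 19 livers, although it was above background in the reference on all 19 arrays, so its liver level is only a bound and it has no fold. At 25 mg/kg, 4 of the 9 tested genes had a higher and 5 a lower estimate than control, and 0 were called at an adjusted p under 0.05 (limma). Over all 29415 probes 0.0578% were called in the same comparison, and the median change was -0.05 over the 9 genes and -0.02 over all probes.

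The slide means lay further apart than the dose means for Nfe2l2, Keap1, Gclm, Txnrd1, Nqo1, G6pdx and the second Hmox1 probe. They did not for Gclc, Srxn1 and the brighter Hmox1 probe. Each comparison was therefore also fitted with slide as a block. With the block, 0 of 9 were called at 25 mg/kg, where 0.809% of all probes were. That background rests on single arrays: 238 probes were called with the block and between 25 and 320 when 1 array was left out, the fewest without control replicate 1. In that fit 3 of the 9 had an unadjusted p under 0.05 (Nfe2l2, Gclc and Keap1), against 14.6% of all probes, and 2 of 9 without the block (Nfe2l2 and Gclc), against 7.37%. At 12.5 mg/kg 0 members were called in either fit, where 0% of all probes passed without the block and 0.0068% with it, and 0 members had an unadjusted p under 0.05, against 4.21% of probes without the block and 9.5% with it. At 6.25 mg/kg the called share of all probes was 0% in both fits, and 1 member without the block (Nfe2l2) and 3 with it (Nfe2l2, Keap1 and G6pdx) had an unadjusted p under 0.05, against 5.57% and 11.7% of probes. The 3 doses share the same 5 controls, so their estimates are not independent of each other.

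**Figure D1:**
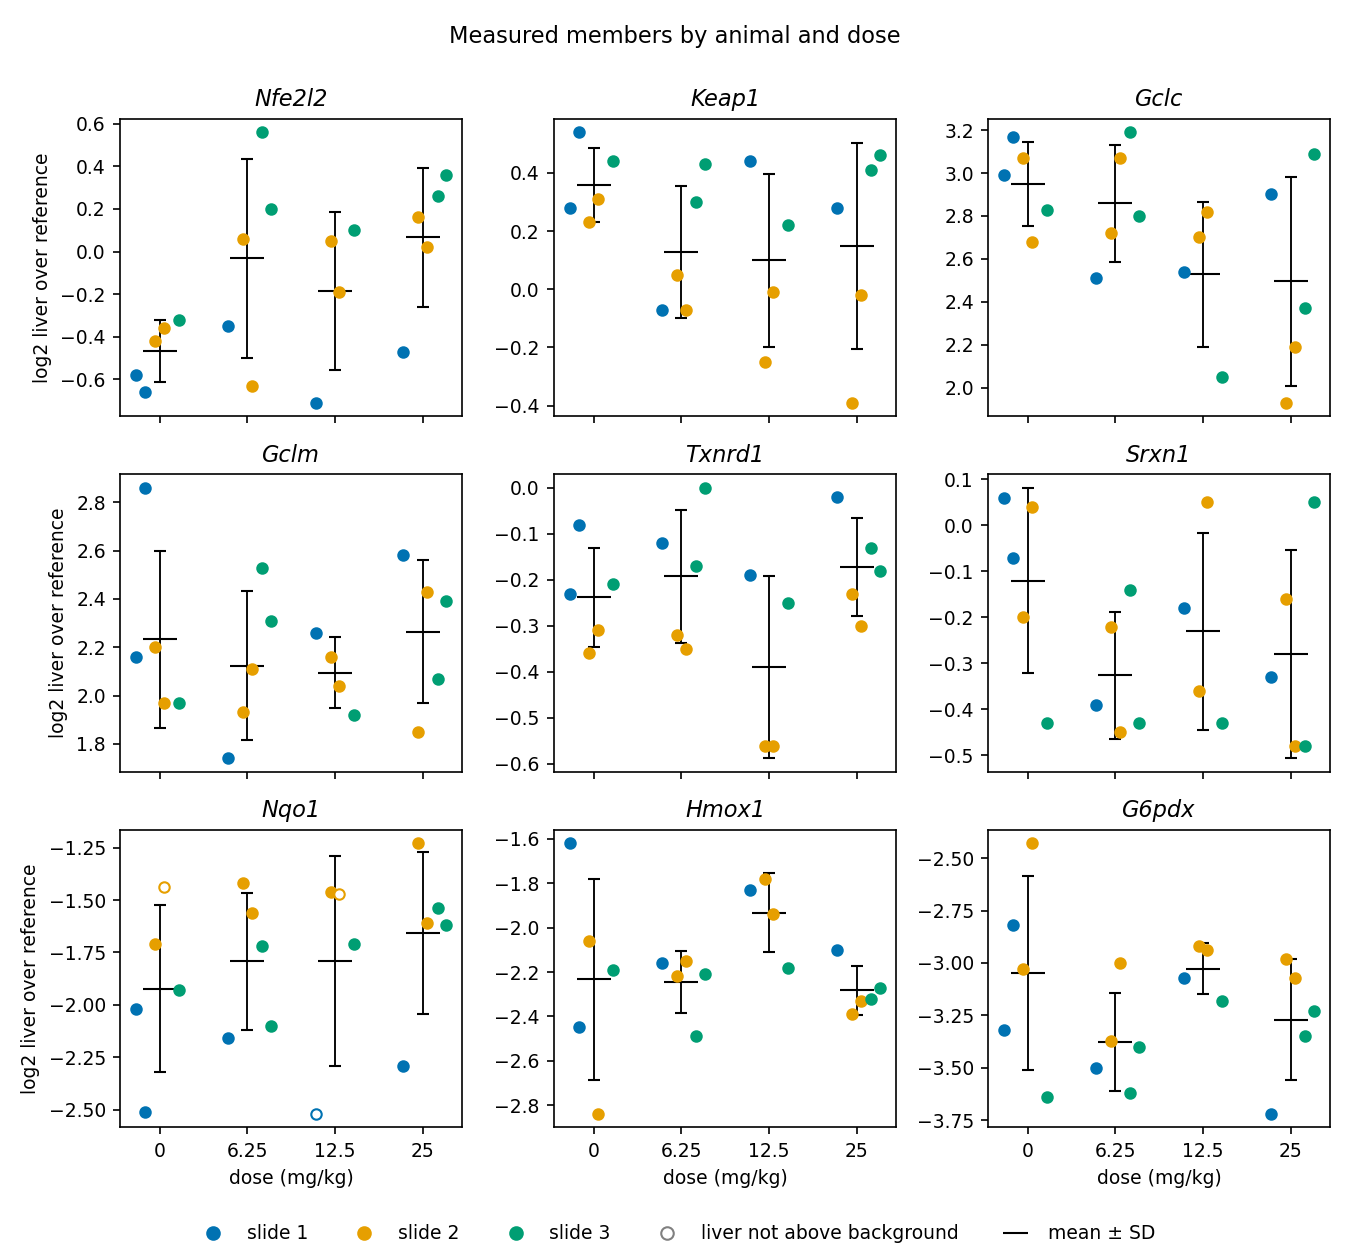
Log2 ratio of liver over reference (vertical axis) of each tested member gene, Hmox1 by its brighter probe, at each DB[a,h]A dose in mg/kg (evenly spaced groups). Points are animals coloured by slide, open points mark liver signal not above background, and lines give the group mean ± SD; the control and treated ranges overlap in every panel, and the lowest Nqo1 value of each group is a slide 1 animal.

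Nfe2l2, the transcript of Nrf2 itself, read -0.32, -0.42, -0.36, -0.58 and -0.66 in the 5 controls. It read 0.56, 0.20, 0.06, -0.63 and -0.35 at 6.25 mg/kg, 0.10, 0.05, -0.19 and -0.71 at 12.5 mg/kg, and 0.26, 0.36, 0.16, 0.02 and -0.47 at 25 mg/kg. At 25 mg/kg 4 of 5 animals lay above every control, and the fifth, on slide 1, lay within the control range, so the groups overlapped. The mean was 0.07 ± 0.32 at 25 mg/kg and -0.47 ± 0.15 in controls (SD, n = 5 each). The change of 0.54 ± 0.21 (SE), 95% interval 0.11 to 0.97, had an adjusted p of 0.497 (limma). It was 0.40 ± 0.13 with slide as a block, with an adjusted p of 0.162.

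Nfe2l2 differed between slides: its mean was -0.56 on slide 1, -0.16 on slide 2 and 0.19 on slide 3, and the SD within groups was 0.35, against 0.23 within group and slide. The difference between 25 mg/kg and control was 0.15 on slide 1, 0.49 on slide 2 and 0.63 on slide 3. All 5 animals at 25 mg/kg were above all controls of their own slide, as for 4.4% of all probes. At 12.5 mg/kg 3 of 4 were above and 1 below, and at 6.25 mg/kg 4 of 5 were above and 1 below. Every animal was above for 3.71% of all probes at 12.5 mg/kg and 3.98% at 6.25 mg/kg, a stricter event. The share of probes with 1 exception was not counted. The changes at 6.25 and 12.5 mg/kg were 0.44 ± 0.21 and 0.28 ± 0.22, with adjusted p-values of 0.891 and 0.999.

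Keap1, the repressor, was above the reference in all 5 controls, at 0.44, 0.23, 0.31, 0.28 and 0.54. Its values were 0.30, 0.43, 0.05, -0.07 and -0.07 at 6.25 mg/kg, 0.22, -0.25, -0.01 and 0.44 at 12.5 mg/kg, and 0.41, 0.46, -0.39, -0.02 and 0.28 at 25 mg/kg. Controls were the tightest group, and treated animals spread downward from the control range while overlapping it at every dose. The changes were -0.23 ± 0.16, -0.26 ± 0.17 and -0.21 ± 0.16 at 6.25, 12.5 and 25 mg/kg (SE), with adjusted p-values of 0.926, 0.999 and 0.841. With slide as a block they were -0.26 ± 0.11, -0.24 ± 0.12 and -0.24 ± 0.11, with adjusted p-values of 0.367, 0.528 and 0.33. Leaving out 1 array moved the unblocked value at 25 mg/kg between -0.289 (without replicate 2 of that dose) and -0.078 (without its replicate 3). At 6.25 mg/kg all 5 animals were below all controls of their slide, as for 4.26% of all probes. For the 2 on slide 3 that was a single control, and 1 of them differed from it by only -0.01. At 12.5 mg/kg 3 of 4 animals were below, and at 25 mg/kg 4 of 5 with 1 above. Every animal was below for 4.7% of all probes at 12.5 mg/kg and 4.99% at 25 mg/kg, a stricter event. The share of probes with 1 exception was not counted.

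**Figure D2:**
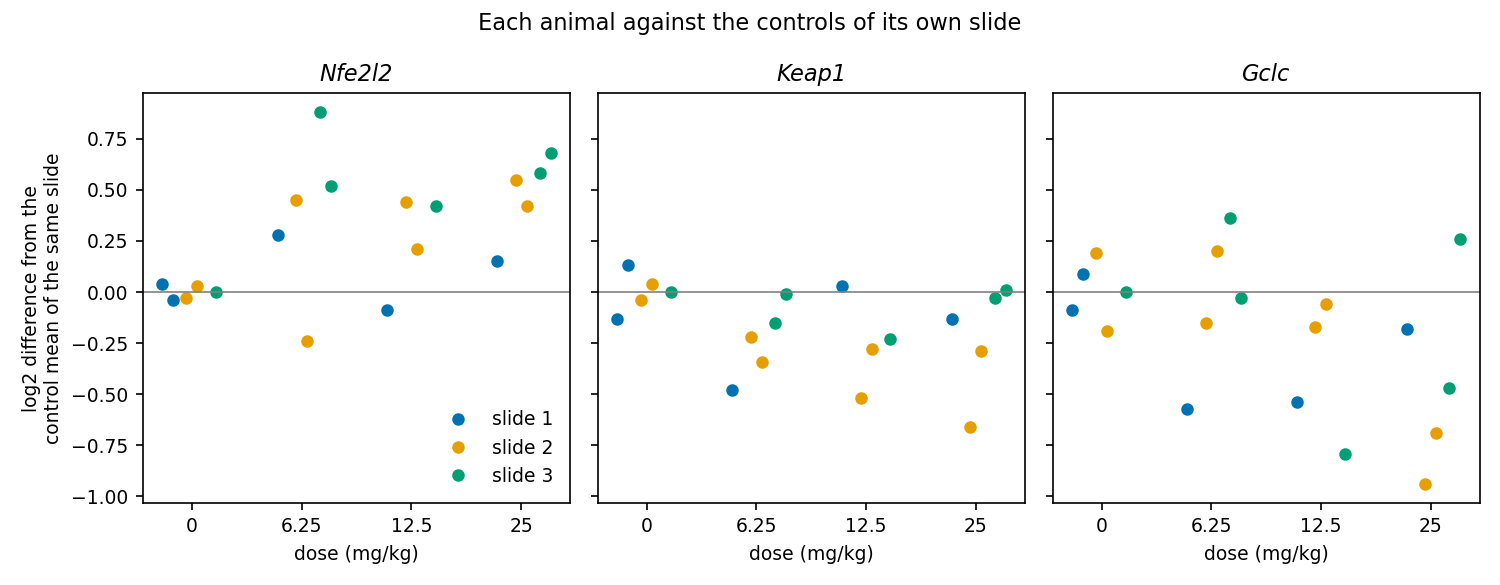
Log2 ratio of each animal minus the mean of the controls on its own slide (vertical axis) for Nfe2l2, Keap1 and Gclc, at each dose in mg/kg (0 is control), with points coloured by slide. All 5 Nfe2l2 points at 25 mg/kg lie above 0, and all 5 Keap1 points at 6.25 mg/kg lie below 0, 1 of them at only -0.01.

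Gclc and Gclm encode the catalytic and the modifier subunit of glutamate-cysteine ligase, the rate-limiting enzyme of glutathione synthesis. Both stood well above the reference in liver, by 7.72-fold for Gclc and 4.70-fold for Gclm in the mean of the controls. Gclc read 2.83, 3.07, 2.68, 2.99 and 3.17 in controls, and 3.19, 2.80, 2.72, 3.07 and 2.51 at 6.25 mg/kg. It read 2.05, 2.70, 2.82 and 2.54 at 12.5 mg/kg, and 2.37, 3.09, 1.93, 2.19 and 2.90 at 25 mg/kg. The values of 3 animals at 25 mg/kg and 2 at 12.5 mg/kg lay below every control, and the others lay within the control range. The estimate was lower than control and not higher, by -0.45 ± 0.20 at 25 mg/kg (95% interval -0.88 to -0.03, adjusted p = 0.633), -0.42 ± 0.22 at 12.5 mg/kg (adjusted p = 0.999) and -0.09 ± 0.20 at 6.25 mg/kg (adjusted p = 0.971). The slide block left the 25 mg/kg value at -0.45, with an adjusted p of 0.329, and the slides gave -0.18, -0.81 and -0.10 for slides 1, 2 and 3.

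Gclm lay between 1.74 and 2.86 over all 19 animals. Its mean was 2.26 ± 0.30 at 25 mg/kg and 2.23 ± 0.37 in controls, a change of 0.03 ± 0.18 with an interval of -0.35 to 0.41 (adjusted p = 0.981). The sign of that estimate was not stable, since leaving out each array in turn gave -0.049 to 0.187 and the deposited table gave -0.003. At 6.25 and 12.5 mg/kg the estimates for Gclm were -0.11 ± 0.18 and -0.14 ± 0.19, and neither passed. Slc7a11, which imports the cystine that glutathione synthesis needs, had ratios averaging -0.76 in controls, -0.67 at 6.25 mg/kg, -0.64 at 12.5 mg/kg and -0.71 at 25 mg/kg, all of them bounds, since the liver channel was not above background.

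Txnrd1, the cytosolic thioredoxin reductase, varied least among the members, with an SD of 0.14 within groups and 0.07 within group and slide. All values lay between -0.56 and 0.00. The change at 25 mg/kg was 0.07 ± 0.10, with an interval of -0.14 to 0.28 (adjusted p = 0.914), which corresponds to a fold between 0.908 and 1.21. All 5 animals at 25 mg/kg were above the controls of their slide, by small amounts, as for 4.4% of all probes. At 12.5 mg/kg 3 of 4 animals were below them. Every animal was below for 4.7% of all probes, a stricter event, and the share with 1 exception was not counted. The change at 12.5 mg/kg was -0.15 ± 0.11 (adjusted p = 0.999). With the slide block the F test of any dose gave an unadjusted p of 0.0464 and an adjusted p of 0.342.

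Srxn1, the sulfiredoxin that repairs overoxidised peroxiredoxins and carried 3 element matches, ran from -0.43 to 0.06 in controls and from -0.48 to 0.05 at 25 mg/kg. The ranges were nearly the same. Its changes were -0.20 ± 0.13, -0.11 ± 0.13 and -0.16 ± 0.13 at 6.25, 12.5 and 25 mg/kg (SE), with adjusted p-values of 0.926, 0.999 and 0.851. The interval at 25 mg/kg, -0.42 to 0.11, reaches no further up than a fold of 1.08. The slides disagreed in sign at that dose, with -0.32, -0.24 and 0.22 on slides 1, 2 and 3.

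Nqo1 encodes the NAD(P)H quinone oxidoreductase, the enzyme most often read as a marker of Nrf2 activity and in mouse also a target of AhR. It read -1.93, -1.71, -1.44, -2.02 and -2.51 in controls, and -1.72, -2.10, -1.42, -1.56 and -2.16 at 6.25 mg/kg. The values were -1.71, -1.46, -1.47 and -2.52 at 12.5 mg/kg, and -1.54, -1.62, -1.23, -1.61 and -2.29 at 25 mg/kg. The order followed the slides: the lowest animal of every group was on slide 1, the slide means were -2.30, -1.49 and -1.77 for slides 1, 2 and 3, and the SD was 0.41 within groups, against 0.19 within group and slide. Liver signal was well above background on 16 of 19 arrays, and control replicate 3 and replicates 3 and 4 at 12.5 mg/kg have only a bound.

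The change of Nqo1 at 25 mg/kg was 0.26 ± 0.24, with an interval of -0.23 to 0.75 and an adjusted p of 0.864. With slide as a block it was 0.16 ± 0.12, with an interval of -0.09 to 0.41 that corresponds to a fold between 0.94 and 1.33, and an adjusted p of 0.58. By slide, the difference was -0.03 on slide 1, 0.15 on slide 2 and 0.34 on slide 3. Without the block, leaving out 1 array moved the value between 0.112 (without control replicate 5) and 0.418 (without replicate 5 at 25 mg/kg), both of them slide 1 animals. At 6.25 and 12.5 mg/kg the blocked changes were 0.03 ± 0.12 and 0.02 ± 0.12. The scanner software's own processed signals gave larger estimates, 0.63 at 25 mg/kg (adjusted p = 0.561) and 0.50 at 6.25 mg/kg (adjusted p = 0.932), which did not pass either.

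Hmox1 encodes haem oxygenase, which breaks haem down to biliverdin, iron and carbon monoxide. Its brighter probe read -2.19, -2.06, -2.84, -1.62 and -2.45 in controls and -2.32, -2.27, -2.39, -2.33 and -2.10 at 25 mg/kg. The treated animals lay inside the wider control range. The change was -0.05 ± 0.16 (fold between 0.763 and 1.22, adjusted p = 0.964). At 12.5 mg/kg it was 0.30 ± 0.17 (adjusted p = 0.999), and at 6.25 mg/kg -0.01 ± 0.16.

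The other Hmox1 probe gave -0.29 ± 0.28 at 25 mg/kg, 0.03 ± 0.30 at 12.5 mg/kg and -0.45 ± 0.28 at 6.25 mg/kg, none of which passed. Its slide means ran from -0.28 on slide 1 to -1.30 on slide 3, and with slide as a block its changes were -0.09, 0.10 and -0.25 at the same doses. Over the mean of the 3 doses the 2 probes differed in sign, at 0.08 for the brighter and -0.23 for the other.

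G6pdx encodes glucose-6-phosphate dehydrogenase, the entry enzyme of the pentose phosphate pathway and a source of NADPH. Liver was 8.26-fold below the reference in controls. Values ran from -3.64 to -2.43 in controls, from -3.62 to -3.00 at 6.25 mg/kg, from -3.18 to -2.92 at 12.5 mg/kg and from -3.72 to -2.98 at 25 mg/kg. The control range covered all of them but 1 at 25 mg/kg. Changes were -0.33 ± 0.19, 0.02 ± 0.20 and -0.22 ± 0.19 at 6.25, 12.5 and 25 mg/kg, with adjusted p-values of 0.917, 0.999 and 0.856. Leaving out 1 array moved the 25 mg/kg value between -0.37 (without control replicate 1) and -0.066 (without control replicate 3). The slides disagreed in sign at 25 mg/kg, with -0.65, -0.30 and 0.36 on slides 1, 2 and 3.

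**Figure D3:**
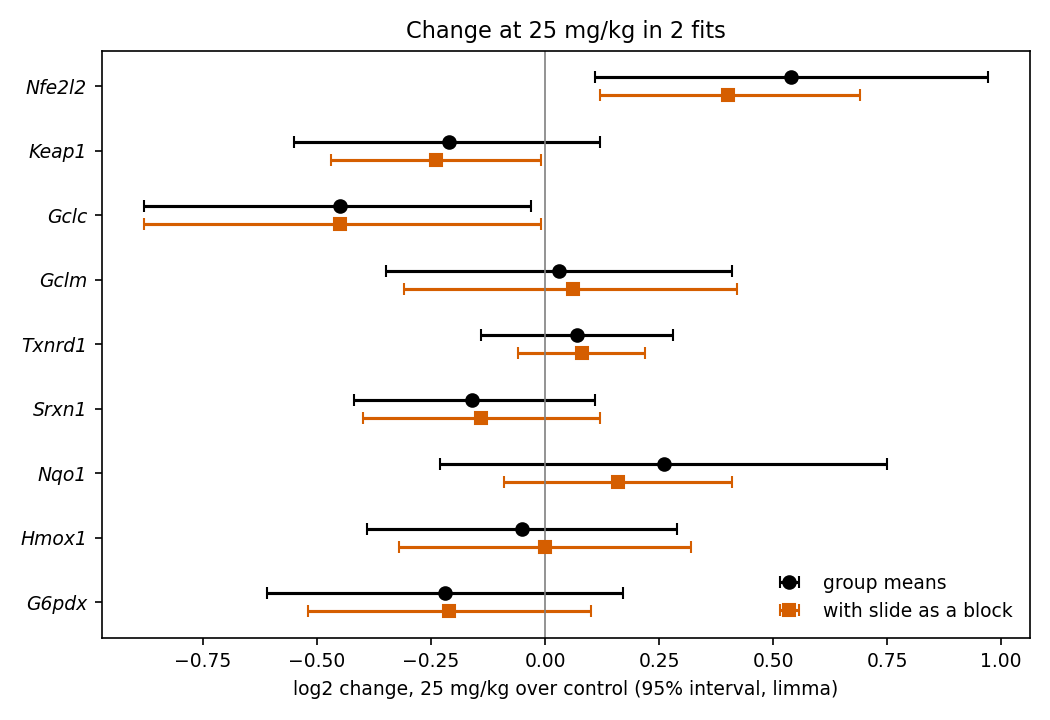
Log2 change at 25 mg/kg over control (horizontal axis) of each tested member gene with its 95% interval from limma, from the fit of group means (black circles) and the fit with slide as a block (orange squares). Nfe2l2 lies furthest up at 0.54 and Gclc furthest down at -0.45, and the intervals of Gclm, Txnrd1, Srxn1, Nqo1, Hmox1 and G6pdx cross 0 in both fits.

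Across doses, Nfe2l2 ranked control, 12.5, 6.25 and 25 mg/kg from low to high, Gclc ranked 25, 12.5, 6.25 mg/kg and control, and Keap1 ranked 12.5, 6.25, 25 mg/kg and control. No tested member had control and treated ranges that failed to overlap at any dose, while 1.75% of all probes did at 25 mg/kg, 1.46% at 12.5 mg/kg and 0.969% at 6.25 mg/kg. For all 9 tested genes every pair of neighbours in the order had overlapping ranges. A linear trend on dose gave 0.0174 ± 0.0080 log2 per mg/kg for Nfe2l2 (adjusted p = 0.818) and -0.0192 ± 0.0076 for Gclc (adjusted p = 0.675). With slide as a block the slopes were 0.0132 ± 0.0053 (adjusted p = 0.349) and -0.0190 ± 0.0076 (adjusted p = 0.353). No member was called for the trend in either fit, against 0.0204% of probes without the block and 0.241% with it, and 2 of 9 (Nfe2l2 and Gclc) had an unadjusted p under 0.05 in each fit, against 5.87% and 10.8% of probes. In the mean of the 3 doses against control, the estimate was 0.42 ± 0.17 for Nfe2l2 (adjusted p = 0.606) and -0.24 ± 0.13 for Keap1 (adjusted p = 0.801), or 0.31 ± 0.11 (adjusted p = 0.235) and -0.25 ± 0.09 (adjusted p = 0.242) with the block. There 0 of 9 members were called in either fit, with 0.0374% and 0.408% of probes called, and 1 member without the block (Nfe2l2) and 2 with it (Nfe2l2 and Keap1) had an unadjusted p under 0.05, against 6.91% and 12.8% of probes. The F test of any dose called 0 members in either fit, where 0.0102% of probes passed without and 0.0748% with the block, and 0 members without the block and 2 with it (Nfe2l2 and Txnrd1) had an unadjusted p under 0.05, against 5.08% and 14.2% of probes.

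After each slide's mean was taken out, the 2 regulators Nfe2l2 and Keap1 varied in opposite directions over the 19 arrays (Pearson r = -0.50). Nfe2l2 had an r of 0.48 with Nqo1, 0.08 with Gclm and -0.28 with Gclc. Keap1 varied against Nqo1 (r = -0.50) but together with Gclc (r = 0.49) and Gclm (r = 0.45). Among the targets, Gclc and Gclm varied together (r = 0.50) and Gclm and Nqo1 in opposite directions (r = -0.45). These values describe arrays that share doses, slides and 1 reference RNA, and the largest in size among the 36 pairs of tested members was -0.63, between Txnrd1 and Hmox1. Among 13546 genes with a value on every array, the patterns most like that of Nfe2l2 were those of Ypel5 (r = 0.865), Lrig3 (r = 0.855) and Gatd3a (r = 0.855). For Keap1 they were Ddx49 (r = 0.877), Mtdh (r = 0.862) and Macroh2a1 (r = 0.854), and for Nqo1 Crybg1 (r = 0.798), Coq8b (r = 0.788) and Rdh14 (r = 0.782).

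Around the 10 members, 67 further genes of the pathway were tested in 7 role groups. By each gene's brightest probe, 0 of 67 were called at any dose in either fit. At 25 mg/kg 30 had a higher and 37 a lower estimate than control, with a median change of -0.02, and 6 had an unadjusted p under 0.05 (12 with the block). At 12.5 mg/kg 19 were higher and 48 lower with a median of -0.08, and at 6.25 mg/kg 22 were higher and 45 lower with a median of -0.05. The medians over all probes at these doses were -0.02 and -0.01. The share of the 67 with an unadjusted p under 0.05 was 8.96% at 25 mg/kg, against 7.37% of all probes, 7.46% at 12.5 mg/kg, against 4.21%, and 5.97% at 6.25 mg/kg, against 5.57%. With the block it was 17.9%, 17.9% and 8.96% at these doses, against 14.6%, 9.5% and 11.7% of all probes. In the mean of the 3 doses it was 13.4%, against 6.91% of all probes, or 16.4% with the block, against 12.8%. The difference between these shares was not tested.

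The Keap1 ligase and the partners of Nrf2 split evenly in sign, with 4 of 8 higher at 25 mg/kg. An unadjusted p under 0.05 was found for 3 of the 8 (Maff, Sqstm1 and Bach1), against 7.37% of all probes. With the block it was found for 4 (Mafg as well), against 14.6%, and the difference between these shares was not tested. Maff, a small Maf protein of the kind that pairs with Nrf2, read -2.94 ± 0.43 in controls, then -2.34 ± 0.38, -1.99 ± 0.30 and -2.14 ± 0.53 with increasing dose (mean and SD over 5, 5, 4 and 5 animals). Its liver signal was above background in only 4 of 5 controls and 3 of 4 animals at 12.5 mg/kg, so these 2 means include bounds. Its change at 25 mg/kg was 0.80 ± 0.25 (adjusted p = 0.326), or 0.69 ± 0.19 with the block (adjusted p = 0.0873). In the mean of the 3 doses it was 0.78 ± 0.21 (adjusted p = 0.248), or 0.68 ± 0.15 with the block (adjusted p = 0.061). Sqstm1, the p62 adaptor that binds Keap1 and draws it into autophagy, averaged 0.44 ± 0.36 at 25 mg/kg and 1.04 ± 0.53 in controls, a change of -0.60 ± 0.25 (adjusted p = 0.602), or -0.40 ± 0.11 with the block (adjusted p = 0.0996). Bach1, a repressor that competes with Nrf2 for the same elements, was picked out after its values were seen: its change was 0.50 ± 0.22 (adjusted p = 0.621), or 0.55 ± 0.17 with the block (adjusted p = 0.127). Mafg, another small Maf protein, was also picked out afterwards, with 0.18 ± 0.21 (adjusted p = 0.889), or 0.32 ± 0.09 with the block (adjusted p = 0.09). Mafk, a further small Maf protein, gave 0.04 ± 0.12 (adjusted p = 0.96), or 0.08 ± 0.12 with the block (adjusted p = 0.822).

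Among the 13 conjugation and export genes, 5 were higher and 8 lower at 25 mg/kg. Gstp1, a glutathione S-transferase of the pi class, ran from 3.18 to 3.57 at 25 mg/kg and from 3.61 to 4.42 in controls. These groups did not overlap, as for 1.75% of all probes. The change was -0.72 ± 0.17 (adjusted p = 0.126), or -0.71 ± 0.17 with the block (adjusted p = 0.0551). A second Gstp1 probe ran from 3.05 to 3.98 at 25 mg/kg and from 4.00 to 4.92 in controls, again without overlap. Its change was -0.88 without the block, which did not pass (adjusted p = 0.204), and -0.75 with it, which passed (adjusted p = 0.0366). It was the 1 of 91 kept probes of these genes that passed in any comparison. In the same fit 0.809% of all probes passed, a share that depends on single arrays. Gstp1 has near-identical copies in the mouse, so its probes may read more than 1 gene. Ephx1, the microsomal epoxide hydrolase that acts on epoxides of polycyclic hydrocarbons, had an estimate of 0.39 (adjusted p = 0.681), or 0.46 with the block (adjusted p = 0.103), and its second probe gave 0.23 and 0.35.

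The other role groups had medians between -0.05 and 0.02 at 25 mg/kg. Of 9 glutathione genes 4 were higher and 5 lower, and the smallest p-values belonged to Ggct, a cyclotransferase of glutathione breakdown (-0.32, adjusted p = 0.756), and the glutathione peroxidase Gpx2 (0.11, adjusted p = 0.872). Gpx2 signal was above background in only 4 of 5 animals at 25 mg/kg and 4 of 5 controls. Of 9 thioredoxin and peroxiredoxin genes 4 were higher and 5 lower, with Prdx5 at -0.21 (adjusted p = 0.678) and the mitochondrial peroxiredoxin Prdx3 at 0.33 (adjusted p = 0.793). Of 7 NADPH genes 2 were higher, and the pentose phosphate enzymes Tkt and Taldo1 gave 0.27 and -0.22 (adjusted p = 0.824 and 0.841). Of 17 quinone, carbonyl, haem and iron genes 9 were higher and 8 lower. Their smallest p-values belonged to the carbonyl reductase Cbr1 (0.40, adjusted p = 0.435) and to Osgin1 (-0.31, adjusted p = 0.829). Of 4 superoxide and peroxide genes 2 were higher, and the superoxide dismutases Sod3 (extracellular) and Sod1 (cytosolic) gave 0.32 (adjusted p = 0.611) and -0.09 (adjusted p = 0.927).

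**Figure D4:**
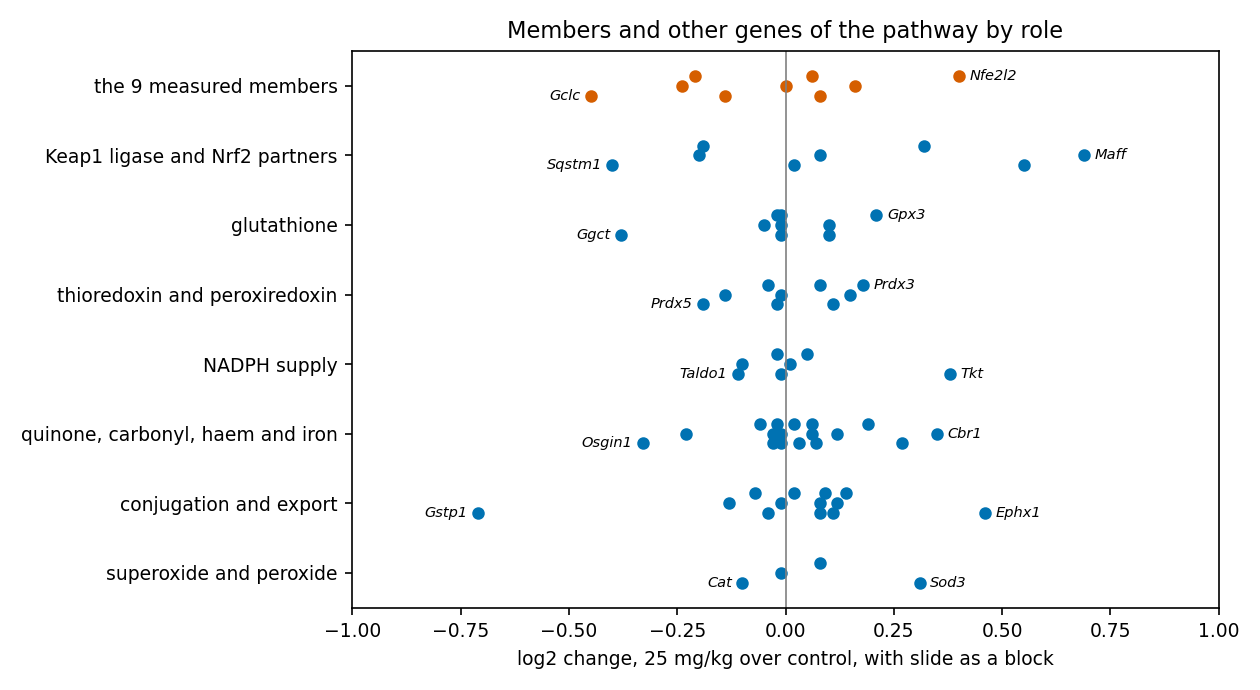
Log2 change at 25 mg/kg over control in the fit with slide as a block (horizontal axis) of the 9 tested members (orange) and the 67 further pathway genes (blue) by role group; each point is 1 gene by its brightest probe, and the lowest and highest of each group are named. Points of every group lie on both sides of 0, from Gstp1 at -0.71 to Maff at 0.69, and no gene shown was called at an adjusted p under 0.05.

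The intervals set what these 19 animals could show. At 25 mg/kg, in the fit without the slide block, the upper end of the 95% interval was a fold of 1.68 for Nqo1, 1.33 for Gclm, 1.22 for Hmox1, 1.21 for Txnrd1, 1.13 for G6pdx, 1.09 for Keap1 and 1.08 for Srxn1. For these genes, rises up to these folds lie within the intervals of that fit. There the interval ran from 1.08 to 1.96 for Nfe2l2 and from 0.543 to 0.979 for Gclc, and neither held an unchanged level. With the block the intervals were 1.09 to 1.61 for Nfe2l2, 0.543 to 0.993 for Gclc and 0.722 to 0.993 for Keap1. In that fit the Keap1 interval did not hold an unchanged level either. The intervals are not adjusted for the number of probes. A p-value that misses the threshold does not show that a gene was unaffected. The smallest adjusted p of any member over 298 fits under 51 settings was 0.0543, for Nfe2l2 at 25 mg/kg with slide as a block and without replicate 4 of the 6.25 mg/kg group.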

How the data were processed

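Liver RNA (200 ng per animal, TRIzol and RNeasy, per the labels' protocols) was hybridised with reference RNA on 19 Agilent arrays. The deposited scanner files give, for each spot and its surround, a median intensity in either colour, and their headers name Feature Extraction 10.7.3.1. A deposited table of log2 ratios, whose making no label states, served as an alternative. Its columns had medians between -0.0355 and -0.0217 and correlated at 0.993 to 0.996 with loess ratios of the raw medians, which gives the scale and the direction (liver over reference). Its centring was not stated. Unannotated intervals on the array are named in build mm9, per the file headers.

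Median signals were corrected with normexp (offset 50) and normalised by loess within arrays, with control spots weighted 0 (limma 3.58.1, R 4.3.3). Outlier-flagged spots (0.623% of non-control spots) were set to missing, and replicate spots were averaged. Probes stayed in where more than a share of 0.5 of their spots exceeded background in liver on at least 4 arrays, which left 29415 of 55681 probes. Group means of all 19 arrays were fitted with lmFit and eBayes, with two-sided tests and Benjamini-Hochberg adjustment over the 29415 probes at 0.05. A gene was read by its brightest kept probe. Symbols came from RefSeq accessions (assembly GRCm38.p6, names only), and 60.1% of kept probes had one. Promoter sequences are from RefSeq, GRCm38.p6. The procedure was tested on simulated data.

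The members and lists were chosen with earlier results of these data known. The text names all members, the 2 further pathway genes of smallest p at 25 mg/kg in each role group, any that passed, and the 3 genes most correlated with Nfe2l2, Keap1 and Nqo1. Bach1, Mafg and Mafk were named beyond this rule, after their values were seen. Other settings were slide as a block, 4 other treatments of the signals, 2 other filters, the mean of a gene's probes, only the groups compared, a trended robust prior, array weights, dose as a rank, and each array left out, also with the slide block, which was added after seeing the data. Precision is limited by the number of arrays.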

Additional observations from a re-analysis of the deposited data

Results flagged for a closer look

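Of 40 groups of values examined for a single animal far from the rest (10 probes in 4 dose groups), 2 held one, and chance alone gives about 1 in 20. For Gclm, control replicate 5 on slide 1 read 2.86, while the other controls ran from 1.97 to 2.20. For the brighter Hmox1 probe, replicate 1 at 6.25 mg/kg on slide 3 read -2.49, while the others of its group ran from -2.22 to -2.15. Neither gene was called with or without these animals.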

How the results depend on the processing

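No member was called in any of 298 fits under 51 settings, so no call depended on a setting, and the estimates of Nfe2l2, Keap1 and Gclc kept their sign in all alternatives tried without the block and, at 25 mg/kg, in every fit with it. At 25 mg/kg and with slide as a block, leaving out each array gave 0.311 to 0.458 for Nfe2l2, -0.294 to -0.15 for Keap1 and -0.582 to -0.301 for Gclc. Estimates near 0 changed sign. With slide as a block these were G6pdx at 12.5 mg/kg (-0.012), Hmox1 at 6.25 mg/kg (0.034), Txnrd1 in the mean of doses (0.003) and the Hmox1 slope (0.0008). The liver channel alone gave -0.04 for Nqo1 and -0.097 for G6pdx at 12.5 mg/kg and 0.044 for Txnrd1 in the mean of doses. The deposited table gave -0.003 for Gclm at 25 mg/kg, 0.023 for Txnrd1 in the mean of doses and 0.0004 for the Hmox1 slope. Processed signals gave 0.004 for Hmox1 at 6.25 mg/kg and 0.025 for Txnrd1 in the mean of doses. No background subtraction gave 0.005 for the same Txnrd1 value, array weights 0.008 for Gclm at 6.25 mg/kg, the mean of probes -0.077 for Hmox1 in the mean of doses, and dose as a rank 0.0117 for the Hmox1 slope. The cause of these changes was not tested. Leaving out each array in turn gave, at 25 mg/kg, -0.049 to 0.187 for Gclm and -0.202 to 0.105 for Hmox1. At 12.5 mg/kg it gave -0.129 to 0.175 for G6pdx, -0.202 to 0.021 for Gclm and -0.018 to 0.374 for Nqo1. At 6.25 mg/kg it gave -0.212 to 0.047 for Gclm, -0.167 to 0.14 for Hmox1, -0.019 to 0.248 for Nqo1 and -0.003 to 0.085 for Txnrd1. In the mean of doses the ranges were -0.138 to 0.085 for Gclm, -0.074 to 0.233 for Hmox1 and -0.043 to 0.026 for Txnrd1. Slopes ranged from -0.0082 to 0.0006 for G6pdx, -0.0015 to 0.0073 for Gclm, -0.0055 to 0.0034 for Hmox1 and -0.0004 to 0.0028 for Txnrd1. Nqo1 could not be tested where liver signal above background on every array was required. Over all probes at 25 mg/kg, 17 were called, against 238 with the slide block, 135 with array weights, 83 with the liver channel alone, 48 with only the groups compared, 33 with a trended robust prior and 10 with no filter, and between 0 (without replicate 1 at 25 mg/kg) and 67 (without replicate 5 at 6.25 mg/kg) without 1 array. With the block and without 1 array the count ranged from 25 to 320 at 25 mg/kg, from 5 to 180 around 120 in the mean of doses (fewest without control replicate 1), and from 4 to 263 around 71 for the trend (fewest without replicate 1 at 25 mg/kg, most without replicate 5 at 6.25 mg/kg). The shares of all probes called with the block therefore depend on single animals. No paired analysis was possible because the labels number the animals in 1 running series, with no number shared between dose groups.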
